A study of Mus musculus with 6 samples.

Results

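The transcription factor gene Atf4, 5 stress genes that ATF4 is known to act on or with (Atf3, Ddit3, Trib3, Chac1 and Gdf15), the asparagine synthetase gene Asns and 3 genes of serine and glycine synthesis (Phgdh, Psat1 and Shmt2) were followed in osteoclast cultures with reduced Usp8. The genes were taken by symbol, and all 10 were found among the 55291 symbols of the tables and were among the 12440 genes that passed the count filter. RNA was sequenced from the mouse macrophage line RAW264.7, which comes from ascites, after 4 days with RANKL at 50 ng/mL, the cytokine that turns such cells into bone-resorbing osteoclasts. The shUSP8 group (3 libraries) carried a short hairpin that knocks down Usp8, a deubiquitinating enzyme of endosomes, and the shCtrl group (3 libraries) a control hairpin. The cells of both groups were of the same line, labelled as macrophages, and both received RANKL. Separate cultures, the number of hairpins and clonality are not stated in the labels. The p-values thus reflect the spread among 6 libraries, and that spread may be technical.

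ATF4 is the main effector of the integrated stress response. When stress kinases phosphorylate the translation factor eIF2, most protein synthesis slows, while the Atf4 mRNA is translated more, so that the level of the Atf4 transcript need not follow the amount of ATF4 protein. ATF4 then induces genes for amino acid uptake, asparagine and serine synthesis and tRNA charging, and, under stronger stress, the genes of CHOP (Ddit3), TRIB3 and CHAC1. In mammalian cells, damage to mitochondria is a known trigger of this response. Only transcripts were measured here.

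ATF4 binds, together with a C/EBP protein, a composite element with the letters TGATGNAA, and the promoters that hold these letters are shown because the genes behind them did not all move alike. The sequences are RefSeq promoter windows of GRCm38.p6 from 250 bases before to 50 bases after the annotated start, 5′ to 3′ on the strand of the gene, and matches on either strand are in capitals. They lie at chr6:7693160-7693459 (Asns, minus strand), chr1:191183284-191183583 (Atf3, minus strand), chr2:119350992-119351291 (Chac1, plus strand) and chr2:152344011-152344310 (Trib3, minus strand).
Asns: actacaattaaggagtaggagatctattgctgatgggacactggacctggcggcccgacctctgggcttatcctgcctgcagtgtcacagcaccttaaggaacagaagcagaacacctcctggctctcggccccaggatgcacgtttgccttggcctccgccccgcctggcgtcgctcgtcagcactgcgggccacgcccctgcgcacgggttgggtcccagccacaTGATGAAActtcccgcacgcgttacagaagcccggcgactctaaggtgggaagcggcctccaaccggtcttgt 
Atf3: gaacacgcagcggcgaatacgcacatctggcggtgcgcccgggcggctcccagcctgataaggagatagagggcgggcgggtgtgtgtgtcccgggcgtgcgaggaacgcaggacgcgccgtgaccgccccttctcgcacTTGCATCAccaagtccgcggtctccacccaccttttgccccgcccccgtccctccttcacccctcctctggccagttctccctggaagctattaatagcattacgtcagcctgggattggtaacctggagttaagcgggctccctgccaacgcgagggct 
Chac1: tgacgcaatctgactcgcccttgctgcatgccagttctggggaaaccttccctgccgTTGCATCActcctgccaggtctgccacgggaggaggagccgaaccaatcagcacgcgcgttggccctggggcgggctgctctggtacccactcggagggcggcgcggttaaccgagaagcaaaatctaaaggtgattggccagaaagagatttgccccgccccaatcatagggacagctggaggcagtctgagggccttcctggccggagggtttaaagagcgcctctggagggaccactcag 
Trib3: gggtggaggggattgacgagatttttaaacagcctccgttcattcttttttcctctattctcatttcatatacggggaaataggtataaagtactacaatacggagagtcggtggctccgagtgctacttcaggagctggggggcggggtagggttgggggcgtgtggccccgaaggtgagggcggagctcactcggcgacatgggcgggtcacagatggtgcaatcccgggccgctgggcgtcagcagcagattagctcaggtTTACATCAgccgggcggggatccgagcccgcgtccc
All 10 genes had at least 1 window (12 in all). The element lay in 4 of these 12 windows, 1 for each of the 4 genes shown, against 3.97% of the 32851 windows in the table. Many of the 10 genes were chosen as known ATF4 targets, so no conclusion is drawn from this difference. In Asns it read TGATGAAA in the sense direction, 23 bases before the start. Atf3 and Chac1 both held TTGCATCA, the element read from the other strand, 110 and 193 bases before the start. The Atf3 window lies inside the gene span given below, so its RefSeq start is not the start of that span (191218039). In Trib3 it read TTACATCA, 14 bases past the start. The cyclic AMP element TGACGTCA was found in none of the members' windows and in 1.79% of all windows. A match describes the letters in these windows and does not show that a factor binds there.

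The libraries held 19973522 to 20213939 expected counts each, an expected count being an estimated number of fragments. Usp8 had 32.0, 34.8 and 35.1 CPM in the shUSP8 libraries, against 141.0, 129.4 and 136.7 CPM in the shCtrl libraries (log2 fold change -2.00, SE 0.06). CPM are counts scaled by library size and TMM factors. All 10 osteoclast markers and all 7 macrophage markers examined were detected, led on the TPM scale by Ctsk, Acp5 and Mmp9 and by Lyz2, Cd68 and Csf1r. In shUSP8, 5 of the osteoclast markers were called lower and none higher, and 4 macrophage markers were called higher and 2 lower, where 17.8% of all genes were called higher and 14.9% lower. The Ctsk call (adjusted p = 0.0496) was lost with any library left out (0.0594 to 0.153) and with the replicate block (0.154). That of Csf1r (0.0154) was lost without shUSP8_3 (0.0706), shCtrl_1 (0.0561) or shCtrl_2 (0.0528) and with the block (0.0562). On log2(TPM + 1), Ctsk, Acp5, Cd68 and Csf1r were not called (adjusted p = 0.888, 0.0537, 0.0524 and 0.349). Lyz2, the lysozyme gene, stood at 3277 ± 153.5 TPM in shUSP8 and 939.1 ± 49.7 TPM in shCtrl (SD, n = 3 each). In bulk RNA, fewer cells of a type and less RNA per cell cannot be told apart. Of 18 markers of neutrophils, lymphocytes, stroma and other lineages, 7 were at 0 in every library, among them Ly6g, Elane, Cd3e, Cd8a, Ms4a1 and Ncr1, and the summed level of all 18 was 2.10 to 2.83 CPM in shUSP8 and 1.62 to 8.63 CPM in shCtrl. The highest sum was that of shCtrl_3, which held most of the collagen counts. Col1a1 had 10, 10 and 8 counts in the shUSP8 libraries, against 16, 31 and 116 in the shCtrl libraries, and Col1a2 had 11, 11 and 6 counts in shUSP8, against 5, 14 and 37 in shCtrl. Without these collagen genes the sum was 1.42 to 1.81 CPM in shUSP8 and 0.557 to 0.723 CPM in shCtrl. Of the 18 markers 3 were tested, and 1 was called higher in shUSP8 and 0 lower. It was the neutrophil gene S100a8 (log2 fold change 1.03, adjusted p = 0.0468). Its call was lost in DESeq2 (0.305), in limma-voom (0.0519), with no filter (0.102) and with the block (0.0674). Among fits with a library left out it held only without shUSP8_2 (0.0349; otherwise 0.0798 to 0.159). The part of these markers in the results was not tested.

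Of the 10 genes, 5 rose in shUSP8 and none fell (edgeR quasi-likelihood test, Benjamini-Hochberg adjusted p under 0.05). The call rate over all genes tested was 17.8% for rises, 14.9% for falls and 32.8% in either direction. The genes that rose were Atf3, Gdf15, Phgdh, Asns and Psat1. The other 5, Atf4, Ddit3, Trib3, Chac1 and Shmt2, did not pass the test, at an unadjusted p of 0.0201 for Shmt2 and of 0.161 to 0.747 for the rest. In 6 genes, the 5 that rose and Shmt2, every shUSP8 library lay above every shCtrl library, a pattern found in 24.6% of all genes tested, and in none did every shUSP8 library lie below, against 23.1% of all genes. The median log2 fold change was 0.25 over the 10 genes and 0.00 over all genes tested.

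**Figure D1:**
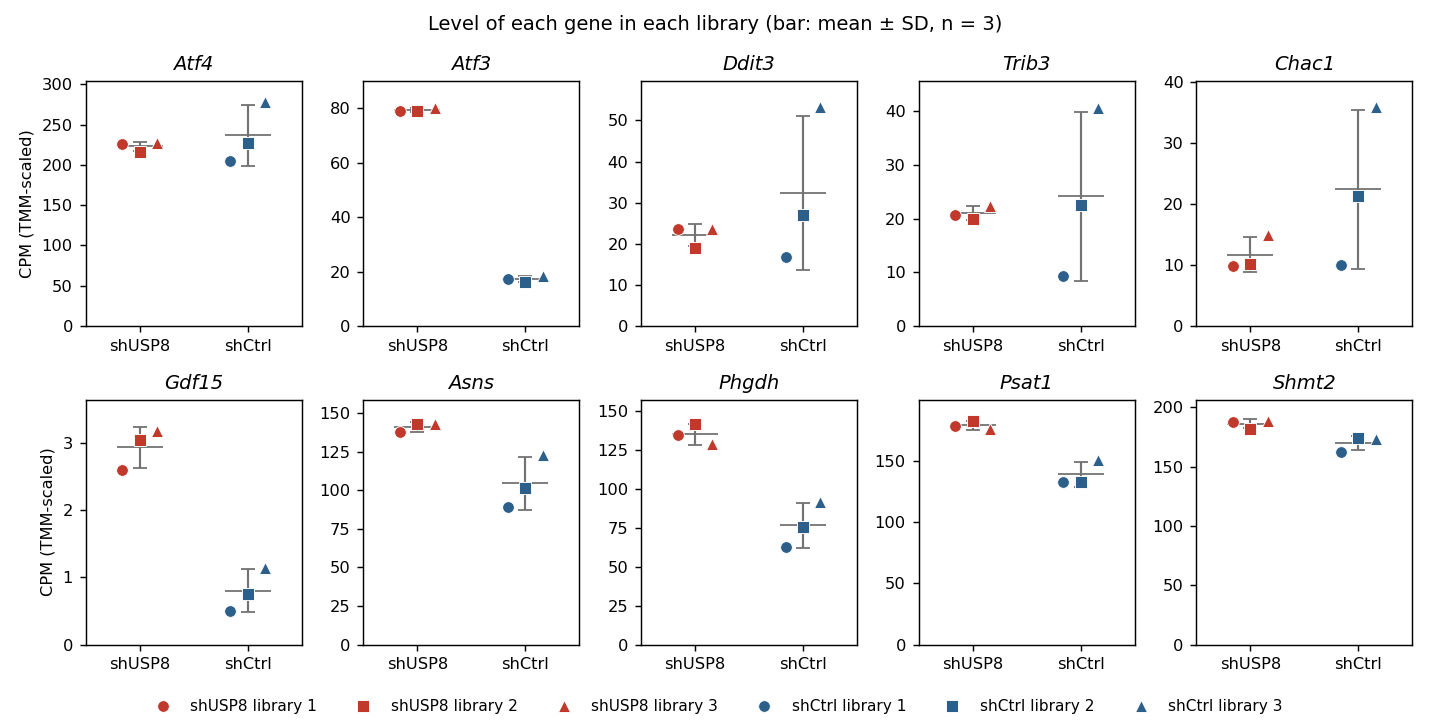
Level of each of the 10 genes in CPM (linear axes from 0) in the 3 shUSP8 libraries (red) and the 3 shCtrl libraries (blue), with bars for mean ± SD. The shUSP8 points of Atf3 lie at 79.0 to 80.2 CPM, above all shCtrl points, whereas the shCtrl points of Ddit3, Trib3 and Chac1 are widely spaced with shCtrl_3 the highest. The shUSP8 points lie between shCtrl points for Ddit3 and Trib3 and around the lowest shCtrl point for Chac1.

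Atf4 (chromosome 15, 80255184 to 80257541, plus strand, GRCm38) was the most abundant of the 10 transcripts per length, at 191.6 ± 7.88 TPM in shUSP8 and 184.1 ± 22.8 TPM in shCtrl (SD, n = 3 per group; TPM are also corrected for transcript length). It had 226.5, 216.4 and 226.7 CPM in the shUSP8 libraries, against 204.4, 227.8 and 277.8 CPM in the shCtrl libraries. The groups overlapped, and the highest and the lowest library were both controls. The log2 fold change was -0.08 (SE 0.10, adjusted p = 0.584). Its sign changed on the TPM scale (0.06 on log2(TPM + 1)), where the median over all genes was itself 0.11, and without shCtrl_3 (0.05). No setting tried brought Atf4 past the test.

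Atf3 (chromosome 1, 191170296 to 191218039, minus strand), which encodes a stress-inducible relative of ATF4 that restrains inflammatory genes in macrophages, rose 4.57-fold. It had 79.0, 79.0 and 80.2 CPM in the shUSP8 libraries, against 17.4, 16.1 and 18.5 CPM in the shCtrl libraries. The libraries within each group were close together, and a wide gap separated the groups. The log2 fold change was 2.19 (SE 0.06, adjusted p = 1.47e-10), and it stayed at 2.14 to 2.24 with any library left out.

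Ddit3 (chromosome 10, 127290829 to 127293753, plus strand) encodes CHOP, the transcription factor of prolonged stress. It had 23.7, 19.0 and 23.5 CPM in the shUSP8 libraries, against 16.9, 26.9 and 53.2 CPM in the shCtrl libraries. The shUSP8 libraries lay close together between shCtrl_1 and shCtrl_2, and shCtrl_3 stood far above the rest. The log2 fold change was -0.55 (SE 0.49, adjusted p = 0.464), and without shCtrl_3 it was 0.01.

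Trib3 (chromosome 2, 152337422 to 152344032, minus strand), a pseudokinase that ATF4 induces and that in turn restrains it, had 425, 415 and 459 expected counts in the shUSP8 libraries, against 184, 446 and 785 in the shCtrl libraries, or 21.1 ± 1.22 CPM and 24.1 ± 15.7 CPM. All shUSP8 libraries lay above shCtrl_1, close to shCtrl_2 and below shCtrl_3. The log2 fold change was -0.19 (SE 0.57, adjusted p = 0.833), with a value of 0.40 without shCtrl_3 and of -0.58 without shCtrl_1. Its sign also changed in limma-voom (0.05) and on log2(TPM + 1) (0.17).

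Chac1 (chromosome 2, 119351229 to 119354381, plus strand), an enzyme that breaks down glutathione, had 202, 212 and 307 expected counts in the shUSP8 libraries, against 197, 423 and 695 in the shCtrl libraries, or 11.7 and 22.4 CPM on average. Here shCtrl_1 lay beside the low shUSP8 libraries and the other controls above all of them. The log2 fold change of -0.94 (SE 0.55, adjusted p = 0.282) was the lowest of the 10 genes and did not pass the test, and it ranged from -1.29 without shCtrl_1 (adjusted p = 0.0714) to -0.42 without shCtrl_3.

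Gdf15 (chromosome 8, 70629393 to 70632456, minus strand), a secreted stress hormone of the TGF-beta family, rose 3.65-fold from a low level. Its expected counts were 53, 63 and 65 in the shUSP8 libraries, against 10, 15 and 22 in the shCtrl libraries, or 3.13 ± 0.348 TPM and 0.770 ± 0.271 TPM. The groups did not overlap. The log2 fold change was 1.87 (SE 0.26, adjusted p = 1.82e-04), between 1.63 without shCtrl_1 and 2.20 without shCtrl_3. On log2(TPM + 1), a scale that understates changes of low genes, it was 1.23, and still called.

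Asns (chromosome 6, 7675169 to 7693254, minus strand), which makes asparagine from aspartate, is a classical ATF4 target. It had 137.6, 143.0 and 142.9 CPM in the shUSP8 libraries, against 89.2, 101.2 and 123.0 CPM in the shCtrl libraries. The shUSP8 libraries were nearly equal and lay above all controls, with shCtrl_3 the closest to them. It rose by a log2 fold change of 0.43 (SE 0.11, adjusted p = 0.0195). The call was lost without shUSP8_1 (adjusted p = 0.0888), shUSP8_2 (0.0764), shUSP8_3 (0.0619) or shCtrl_2 (0.0678), with values between 0.41 and 0.45, and without shCtrl_3 the value was 0.57 (adjusted p = 2.58e-04).

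The serine pathway branches from glycolysis through PHGDH, PSAT1 and PSPH, and SHMT2 then turns serine into glycine in mitochondria and loads the released carbon onto folate. Phgdh (chromosome 3, 98313170 to 98339990, minus strand) carries out the first step. It had 134.6, 141.9 and 128.9 CPM in the shUSP8 libraries, against 62.7, 75.5 and 91.9 CPM in the shCtrl libraries, and rose 1.76-fold with no overlap (log2 fold change 0.82, SE 0.14, adjusted p = 0.00601). Phgdh was the only member whose expected counts were not whole numbers, in all 6 libraries, so some of its reads were shared with other genes and its level is uncertain to that extent. The value ranged from 0.69 without shCtrl_1 to 0.97 without shCtrl_3, and the adjusted p was highest without shUSP8_1 (0.0490).

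Psat1 (chromosome 19, 15904678 to 15947337, minus strand), the next enzyme, had 178.3, 182.4 and 175.6 CPM in the shUSP8 libraries, against 132.9, 133.0 and 150.7 CPM in the shCtrl libraries. The shUSP8 libraries lay above the controls throughout. It rose by a log2 fold change of 0.36 (SE 0.06, adjusted p = 4.51e-04), and its call held with each library left out (0.33 to 0.43). Psph, the phosphatase of the last step, named after its values were seen, was at 28.5, 26.7 and 27.0 CPM in the shUSP8 libraries, against 22.3, 24.2 and 24.6 CPM in the shCtrl libraries (log2 fold change 0.21, adjusted p = 0.0325). Its call was lost without shUSP8_1 (0.0638), shUSP8_3 (0.0674), shCtrl_1 (0.135) or shCtrl_2 (0.0832), in DESeq2 (0.152) and with the replicate block (0.0588). The Psph call was also lost with effective-length offsets (0.296) and on the 3 TPM scales (0.0992 to 0.204).

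Shmt2 (chromosome 10, 127517123 to 127522444, minus strand) had 188.0, 181.6 and 188.6 CPM in the shUSP8 libraries, against 162.7, 173.8 and 173.0 CPM in the shCtrl libraries. The groups did not overlap, but the gap between them was small, and the log2 fold change of 0.13 (SE 0.05) missed the threshold (adjusted p = 0.0587). It passed with library totals (0.21, adjusted p = 0.00699), on log2(TPM + 1) (0.22, 0.0277) and without shUSP8_2 (0.15, 0.0424). Library totals put the median over all genes at 0.07, and log2(TPM + 1) put it at 0.11. Shmt2 overlaps the gene Ndufa4l2 on the opposite strand, which had at most 3 counts in any library.

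The order of the levels per length differed between the groups. In shUSP8, Atf4 was followed by Shmt2 at 122.3 ± 5.73 TPM and then by Phgdh (104.0 ± 3.76 TPM), Asns (102.8 ± 4.20 TPM) and Psat1 (96.8 ± 2.48 TPM). Phgdh and Asns differed by less than their SD. Atf3 (57.8 ± 2.20 TPM) and Ddit3 (50.1 ± 3.94 TPM) came next, farther apart than their SD. In shCtrl, Shmt2 stood at 104.6 ± 3.07 TPM, Asns at 69.3 ± 8.93 TPM, Psat1 at 69.0 ± 2.78 TPM, Ddit3 at 62.5 ± 33.4 TPM and Phgdh at 53.6 ± 8.43 TPM. Neighbours from Asns to Phgdh in this order differed by less than the larger of their SD values. Atf3 came near the end of the order in shCtrl, at 11.5 ± 0.656 TPM, and Gdf15 was last in both groups. Trib3 and Chac1 were low in both groups, at 15.9 ± 2.01 and 10.8 ± 2.95 TPM in shUSP8 and 16.2 ± 10.4 and 18.5 ± 10.1 TPM in shCtrl.

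Trib3, Chac1 and Ddit3 were among the genes that differed most between the control libraries. Of 8926 genes whose log2 CPM averaged 3 or more, 9 spanned more than 1 on the log2 scale between the lowest and the highest shCtrl library, and 3 of them were Trib3 (2.11), Chac1 (1.84) and Ddit3 (1.65). They ranked 2, 3 and 4 of 8926, after the predicted gene Gm8210. In the shUSP8 libraries the same genes spanned 0.16, 0.60 and 0.32. The median span over the 8926 genes was 0.15 in shUSP8 and 0.12 in shCtrl. Phgdh (0.55), Asns (0.46) and Atf4 (0.44) ranked 44, 72 and 90 by their span in shCtrl, whereas Atf3 (0.20), Psat1 (0.18) and Shmt2 (0.09) ranked 1613, 2079 and 5428. Gdf15 was below the level needed for this ranking.

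**Figure D2:**
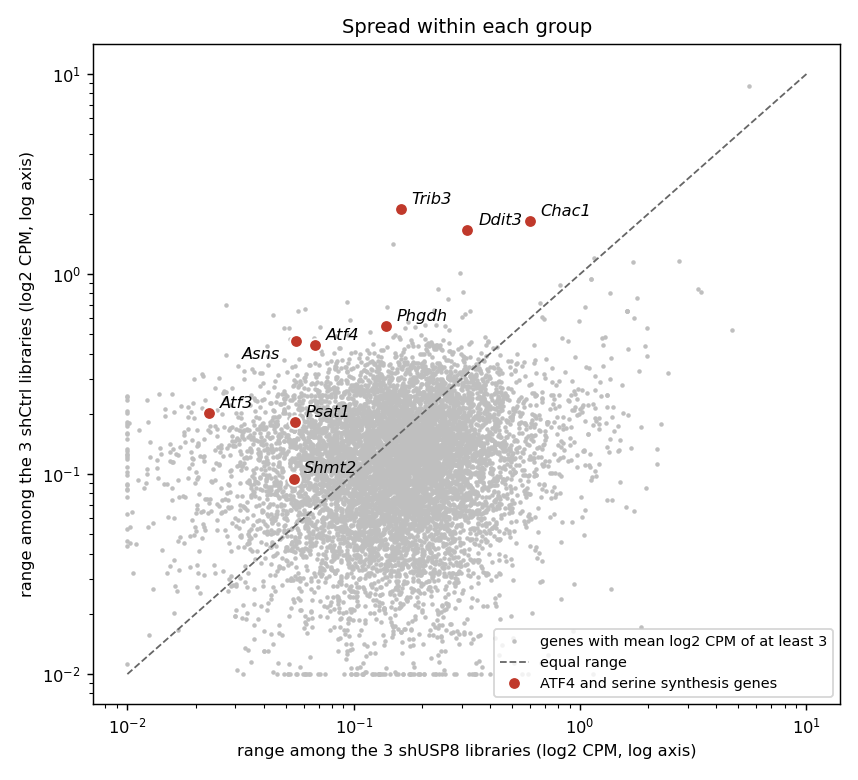
Span between the lowest and the highest library in log2 CPM within shUSP8 (x axis) and within shCtrl (y axis), both on log axes, for 8926 genes (grey) and the 9 members among them (red), with spans under 0.01 drawn at 0.01. The 9 members lie above the line of equal span, with Trib3 at 2.11 in shCtrl and 0.16 in shUSP8.

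In 8 of the 10 genes shCtrl_3 was the highest and shCtrl_1 the lowest of the controls, a pattern found in 21.0% of all genes tested. The exceptions were Atf3 and Shmt2. In 4 genes, Atf4, Ddit3, Trib3 and Chac1, shCtrl_3 was the highest of all 6 libraries, against 21.1% of all genes tested. The ratio of shCtrl_3 to shCtrl_1 was 4.35 for Trib3, 3.60 for Chac1, 3.16 for Ddit3 and 2.25 for Gdf15, and between 1.06 and 1.46 for the other 6. The collagen counts of shCtrl_3 given above moved with this pattern.

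The fold change of several members depended on which control library it was taken against. The mean CPM of shUSP8 over shCtrl_1 gave a log2 ratio of 1.18 for Trib3, 0.39 for Ddit3 and 0.23 for Chac1. Over shCtrl_3 the ratio was -0.95 for Trib3, -1.27 for Ddit3 and -1.62 for Chac1. For Atf4 the ratio was 0.13 over shCtrl_1 and -0.32 over shCtrl_3. By contrast, Atf3 was at 2.19, 2.30 and 2.10 over the 3 controls and Psat1 at 0.43, 0.43 and 0.25. Phgdh stayed positive at 1.11, 0.84 and 0.56, Asns at 0.66, 0.48 and 0.20, Gdf15 at 2.53, 1.95 and 1.37 and Shmt2 at 0.19, 0.10 and 0.11.

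**Figure D3:**
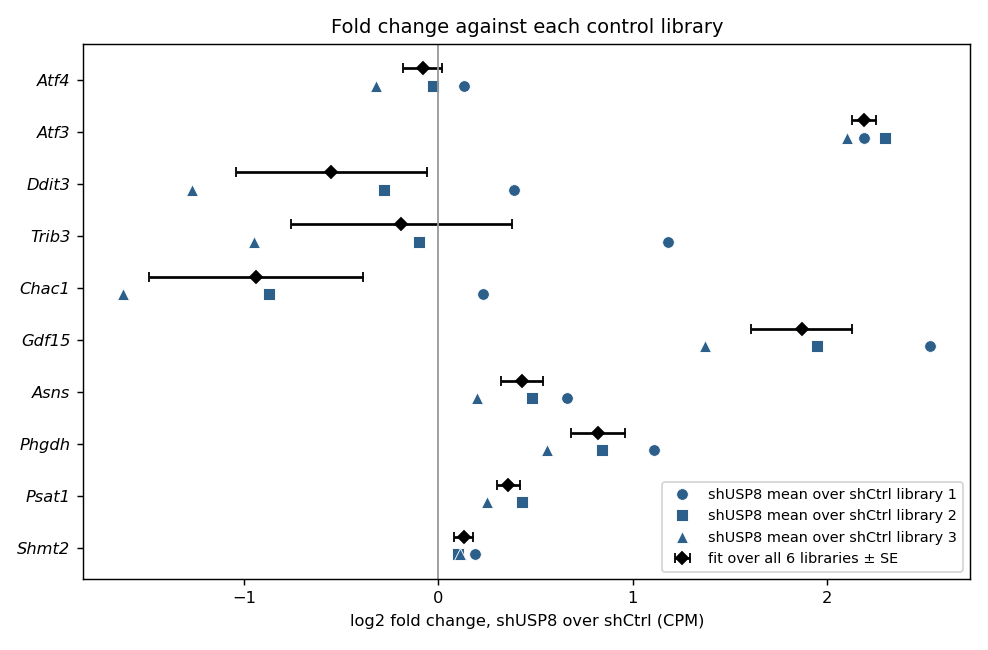
Log2 ratio of the shUSP8 mean to each shCtrl library (blue symbols) and the log2 fold change fitted over all 6 libraries with its SE (black). Trib3, Ddit3, Chac1 and Atf4 have points on both sides of 0, and the other 6 genes have all points above 0.

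With a library left out, 4 of the 10 genes were called higher without shUSP8_1, shUSP8_3 or shCtrl_2, where Asns lost its call. In the fit without shUSP8_2, Asns was lost and Shmt2 gained, so that 5 were called. Without shCtrl_1 or shCtrl_3, 5 were called, and in none of these fits was a member called lower. Over all genes, 1675 to 2349 were called higher and 1239 to 2077 lower in these fits, against 2218 and 1859 with all 6 libraries.

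**Figure D4:**
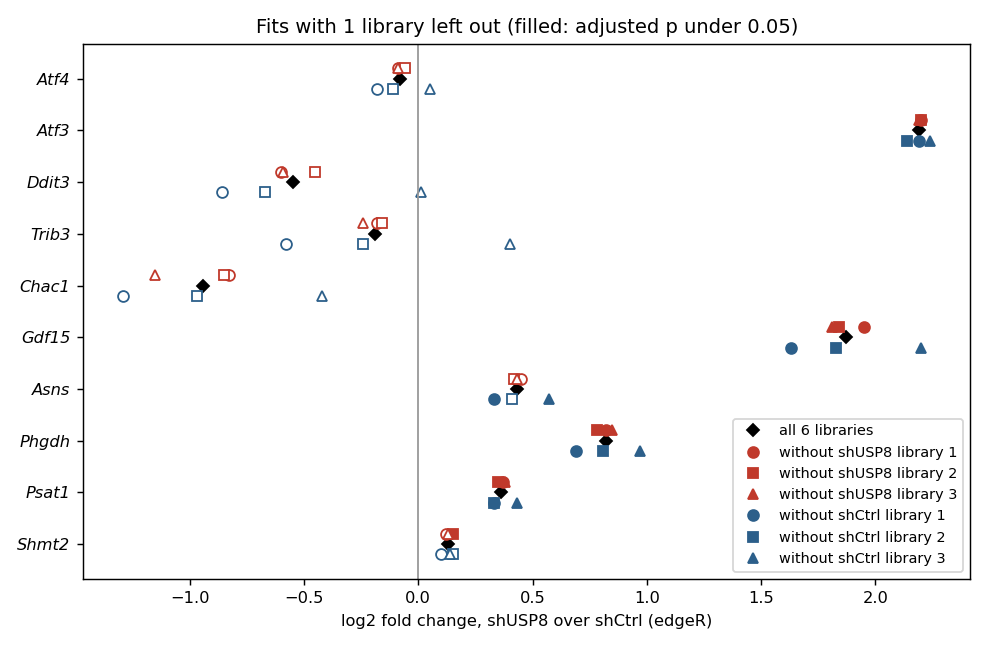
Log2 fold change from edgeR with all 6 libraries (black) and with each library left out in turn (red for shUSP8, blue for shCtrl), filled where the adjusted p was under 0.05. The points of Ddit3, Trib3 and Chac1 are open and spread widely when shCtrl_1 or shCtrl_3 is left out, while those of Atf3, Gdf15, Phgdh and Psat1 are all filled.

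The genes whose profile over the 6 libraries was nearest to that of a member were found by the mean absolute difference of log2 CPM scaled to mean 0 and SD 1, among 8925 other genes. For Asns they were Aldh1l2, a mitochondrial folate enzyme (0.079), Wdr43, a ribosome biogenesis protein (0.091), and Ticam2, an adaptor of Toll-like receptor 4 (0.093), and Phgdh ranked 27. For Psat1 they were Smarcb1, a chromatin remodelling subunit (0.047), Anxa7, an annexin (0.059), and Ugp2, which makes UDP-glucose (0.075), and Phgdh ranked 5. For Trib3 they were Lgalsl (0.149), Oser1 (0.191) and Mavs (0.198), the last the adaptor of cytosolic RNA sensors. For Atf4, added outside the rule for this comparison, the nearest of all 8925 genes was Ddit3 (0.101), then non-members at 0.133 and 0.149. For Atf3, Chac1, Phgdh and Shmt2 the nearest gene was not a member. The scaling removes the size of a difference: shCtrl_3 over shCtrl_1 was 1.36 for Atf4 and 3.16 for Ddit3. This ratio was 4.35 for Trib3, against 1.23, 1.13 and 1.11 for Lgalsl, Oser1 and Mavs. Atf4 and Ddit3 had the same order of control libraries, and neither separated the groups. These profiles share 6 libraries, and many genes that separate the groups lie close together on this measure.

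Genes upstream of ATF4 and in related pathways are given beside the call rates over all genes tested, 17.8% higher and 14.9% lower. The 8 lists overlap, so their calls are not separate results. Of the other ATF4 targets, 5 are also in another list, among them Psph, Slc7a11 and Slc3a2, and Eif2ak1 is in both the eIF2 and the mitochondrial list. Of 15 genes for eIF2 kinases, eIF2, its exchange factor eIF2B and its phosphatases, 3 were called higher and 1 lower. The share called higher was near that over all genes and the share called lower was below it. The median log2 fold change was -0.03. Eif2ak2, the kinase PKR, which double-stranded RNA activates and interferon induces, rose to 46.3 ± 3.08 CPM in shUSP8, against 31.1 ± 1.26 CPM in shCtrl (log2 fold change 0.57, adjusted p = 4.25e-05). The eIF2B subunit genes Eif2b3 (0.30) and Eif2b1 (0.22) rose and Eif2b2 (-0.38) fell. The Eif2b1 call was lost without shUSP8_2 (adjusted p = 0.0524), shUSP8_3 (0.0578), shCtrl_2 (0.0977) or shCtrl_3 (0.0858) and with effective-length offsets (0.11, adjusted p = 0.309). It was also lost in DESeq2 (0.0768) and on the 3 TPM scales (0.0668 to 0.112). That of Eif2b2 was lost on log2(TPM + 1) (-0.25, adjusted p = 0.110). The other kinase genes, Eif2ak1 (-0.01), Eif2ak3 (-0.03) and Eif2ak4 (-0.13), did not pass the test. The list for the relay of mitochondrial stress to eIF2 held 5 genes: Oma1, Dele1, Eif2ak1, Opa1 and Yme1l1. None of them was called in edgeR with TMM scaling, at adjusted p-values of 0.0540 to 0.880. With RLE factors, in limma-voom and with effective-length offsets, 1 was called lower. Dele1, which carries the signal of OMA1 to the cytosol, had 42.0, 41.8 and 42.7 CPM in the shUSP8 libraries, against 46.7, 46.4 and 47.1 CPM in the shCtrl libraries, with no overlap (log2 fold change -0.15, adjusted p = 0.0540). Opa1, the inner membrane fusion protein cleaved by OMA1, was at -0.04 and the protease gene Yme1l1 at -0.02. Both signs turned positive with library totals (0.03 and 0.06) and on log2(TPM + 1) (0.13 and 0.09).

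Among bZIP partners and relatives of ATF4, 12 of 15 genes were tested, 8 were called higher and none lower, with a median of 0.23. Cebpb, a partner of ATF4 on composite elements, rose to 126.3 ± 14.8 CPM in shUSP8, against 62.9 ± 7.06 CPM in shCtrl (log2 fold change 1.00, adjusted p = 2.30e-04). Cebpa, which also shapes myeloid identity, rose as well (1.34). Jun was at 0.28 (adjusted p = 0.00909), a call lost without shCtrl_3 (0.0503). Atf5, a relative of ATF4 that also responds to mitochondrial stress, was named after its values were seen. It had 58.3, 38.8 and 62.0 CPM in the shUSP8 libraries, against 13.5, 16.8 and 20.7 CPM in the shCtrl libraries (log2 fold change 1.64, SE 0.26, adjusted p = 0.00914), with no overlap.

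Of 22 other known ATF4 targets, 20 were tested, 5 were called higher and 3 lower, near the 17.8% and 14.9% of all genes, with a median of 0.03. Slc7a11, the cystine transporter, rose most, to 112.8, 125.4 and 138.9 CPM in the shUSP8 libraries, against 11.3, 12.1 and 17.3 CPM in the shCtrl libraries (log2 fold change 3.21, SE 0.18, adjusted p = 6.30e-05). Sqstm1, the autophagy receptor p62, rose by 0.81 (adjusted p = 8.65e-07). Both genes are also known targets of the oxidative stress factor NRF2. Eif4ebp1, a brake on translation (-0.31), and Map1lc3b, an autophagosome protein (-0.26), fell. Map1lc3b was not called on log2(TPM + 1) (-0.10, adjusted p = 0.319) or with effective-length offsets (-0.23, 0.0767). The number called higher was 2 without shUSP8_1, shUSP8_3 or shCtrl_2, and 3 without shUSP8_2 or shCtrl_1, and 6 were called lower without shCtrl_1. Without shCtrl_3, 7 were called higher and 2 lower. In 15 of the 20 genes shCtrl_3 was the highest and shCtrl_1 the lowest control, and 10 had their highest level of all libraries in shCtrl_3.

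Amino acid transporters had 8 of 15 tested genes called higher and 2 lower, with a median of 0.23. Beside Slc7a11, the lysosomal exporter gene Slc36a1 (0.85) and Slc7a6, which exchanges cationic and neutral amino acids (0.47), rose. Slc38a2, the sodium-coupled neutral transporter SNAT2 and itself a known ATF4 target, fell to 369.3 ± 29.8 CPM in shUSP8, against 559.2 ± 57.4 CPM in shCtrl (log2 fold change -0.60, adjusted p = 3.52e-04). The number called lower was 1 without shUSP8_1 or shCtrl_3. Slc6a9, a glycine transporter named after its values were seen, had 37.4, 38.7 and 44.9 CPM in the shUSP8 libraries, against 11.6, 16.8 and 19.7 CPM in the shCtrl libraries (log2 fold change 1.33, adjusted p = 0.00346).

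Of 20 cytosolic tRNA synthetase genes, 7 were called higher and none lower, with a median of 0.08. The largest change was that of Wars, the tryptophan enzyme that interferon induces, at 95.2 ± 1.57 CPM in shUSP8 and 67.9 ± 3.10 CPM in shCtrl (log2 fold change 0.49, adjusted p = 1.77e-05). Rars (0.27), Farsb (0.20) and Vars (0.20) rose less. The number called was 4 without shCtrl_1 or shCtrl_2.

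Serine, glycine and folate enzymes other than the members, a list that again counts Psph, had 5 of 27 tested genes called higher and 3 lower, with a median of -0.02. Mtrr, which restores methionine synthase (0.29), and Ggh, a folate hydrolase (0.35), rose, and Mat2b, a subunit of S-adenosylmethionine synthase (-0.24), and Mtr, methionine synthase (-0.16), fell. The Ggh call was lost without shUSP8_2 (adjusted p = 0.0503), shUSP8_3 (0.0799), shCtrl_1 (0.0884), shCtrl_2 (0.0530) or shCtrl_3 (0.0967), in DESeq2 (0.238), with no filter (0.0670), with offsets (0.0707) and with the replicate block (0.0578). That of Mtr was lost without shUSP8_3 (0.108), shCtrl_1 (0.0956), shCtrl_2 (0.0551) or shCtrl_3 (0.0816), in DESeq2 (0.0830), with library totals (0.218), with offsets (0.224) and with the replicate block (0.0547), and its sign turned on log2(TPM + 1) (0.03). Mat2b (-0.09) and Mtrr (0.28) did not pass on log2(TPM + 1) (adjusted p = 0.396 and 0.243), nor did Mtrr with offsets (0.16, 0.564). In fits with a library left out, the number called higher was 1 without shUSP8_3 or shCtrl_2, 2 without shUSP8_2 or shCtrl_1 and 3 without shCtrl_3, and the number called lower was 1 without shCtrl_1, shCtrl_2 or shCtrl_3.

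Endoplasmic reticulum chaperone genes, which the ATF6 and XBP1 branches of the unfolded protein response control, had 2 of 21 called higher and none lower, with a median of 0.05. They were Pdia6, a disulphide isomerase (0.32, adjusted p = 5.65e-04), and Hyou1, a chaperone (0.23, adjusted p = 0.0102). The Hyou1 call was lost without shCtrl_1 (0.0611) or shCtrl_2 (0.0515) and with offsets (0.0713). The number called was 1 without shCtrl_1 or shCtrl_2 and 5 without shCtrl_3. In 17 of the 21 genes shCtrl_3 was the highest and shCtrl_1 the lowest control.

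**Figure D5:**
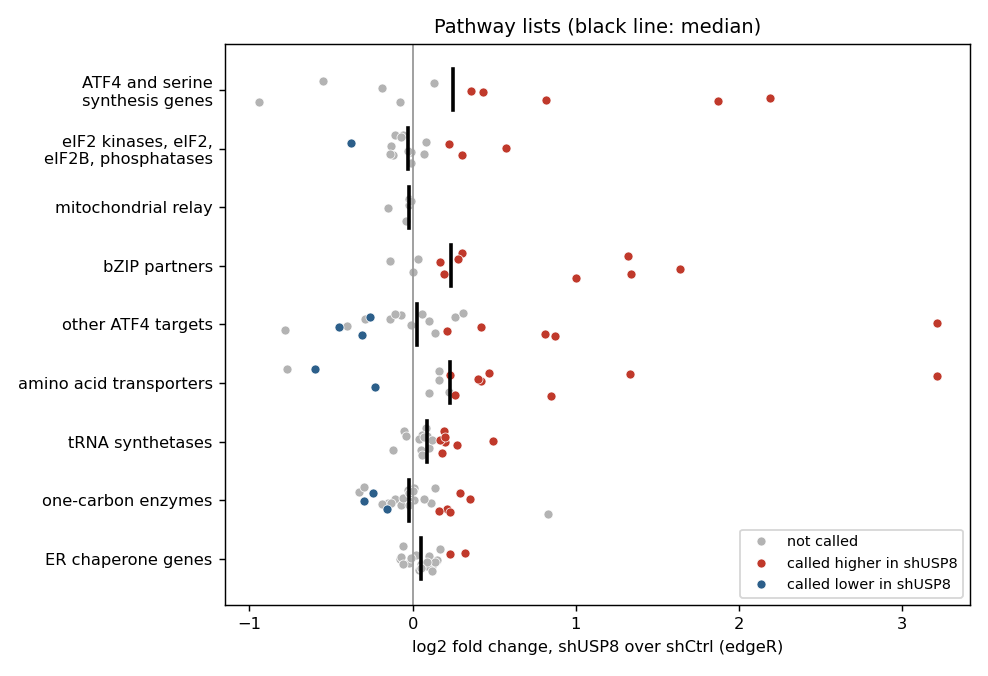
Log2 fold change of every tested gene in the 10 ATF4 and serine synthesis genes and in 8 pathway lists, coloured by call, with the median of each as a black line. The 10 genes and the transporter and bZIP lists have medians of 0.23 to 0.25, and the other lists lie between -0.03 and 0.08.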

How the data were processed

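The values came from 2 whole-series tables holding 55291 gene symbols in rows and the 6 libraries in columns. The expected counts, as deposited by the authors, are fragment estimates, 7.16% of them not whole, and the deposited TPM values sum to the same total in every library. RSEM, DESeq2 1.28.1 and the build mm10 are listed, with no role, in the submitters' processing notes. Aligner, annotation and strand setting: not given in the sources used here. Columns named WT were taken as shCtrl by the genotype label and those named KO as shUSP8, the other genotype, with the number in the title.

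After rounding of the expected counts, filterByExpr kept genes (counts of at least 10, totals of at least 15), TMM gave the scaling, and the robust quasi-likelihood test of edgeR 4.0.16 under R 4.3.3 compared shUSP8 with shCtrl, adjusted over 12440 genes and called under 0.05. SE is the absolute log2 fold change over the root of the F statistic. Alternatives were RLE factors, library totals, no filter, DESeq2 1.42.0, limma-voom (limma 3.58.1), log2(TPM + 1) and log2(TPM + 0.1) in limma, offsets of effective length (expected count over TPM), a block for the replicate number, and fits with each library left out in turn. Most of these fits were tried on simulated counts with a single dispersion and few changed genes. That setting differs from these data, so no support is drawn from it. The fits on log2(TPM + 0.1), on log2(TPM + 1) with no filter and with a library left out were not tried. Positions came from GENCODE M21 (GRCm38) by transcript identifier.

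The members and the lists were chosen with earlier results of these data known. Named genes are the members, the nearest genes of Asns, Psat1 and Trib3, up to 4 called genes of each list by smallest p (2 by level where none was called) and the 3 most abundant markers. For eIF2, mitochondrial relay, ER and other genes, values of members outside this rule were chosen after they were seen. A gene that this rule takes from the bZIP list is not reported here.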

Additional observations from a re-analysis of the deposited data

How the results depend on the processing

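The 5 members called higher and 0 called lower became 6 and 0 with library totals and in the 3 fits on log2 TPM, where Shmt2 passed as well, and stayed at 5 and 0 in the other 6 alternatives. With a library left out the members called higher ranged from 4 to 5, with 0 lower. Over all genes, the 2218 of 12440 called higher became 3111 of 12440 with library totals. They became 2329 and 2351 of 12440 on log2(TPM + 1) and log2(TPM + 0.1). On log2(TPM + 1) with no filter they were 1716 of 22024, and with effective-length offsets 1510 of 12379. With a library left out they ranged from 1675 to 2349. Asns fell out of the calls only in fits with a library left out. Signs turned for Atf4 on log2(TPM + 1), log2(TPM + 0.1) and log2(TPM + 1) with no filter (0.06 in each) and without shCtrl_3 (0.05). They turned for Trib3 in limma-voom (0.05), in those TPM fits (0.17, 0.20 and 0.17) and without shCtrl_3 (0.40), and for Ddit3 without shCtrl_3 (0.01). With a library left out, the values ranged from -0.18 to 0.05 for Atf4, -0.86 to 0.01 for Ddit3 and -0.58 to 0.40 for Trib3. None of these values passed the test. Gdf15 was at 1.23 on log2(TPM + 1), with and without the filter, and at 1.94 on log2(TPM + 0.1), against 1.87 on counts.

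Over all genes, the 1859 called lower became 1172 with library totals, 499, 493 and 380 on the 3 TPM scales and 1226 with effective-length offsets; with a library left out they ranged from 1239 to 2077. Rises made up 54.4% of calls in edgeR with TMM, 72.6% after library totals and 82.4% after log2(TPM + 1). Lists changed as follows. Folate genes called higher were 3 with no filter, 2 in DESeq2, on log2(TPM + 1), log2(TPM + 0.1) and with the replicate block, and 0 with offsets and on TPM with no filter. Those called lower were 1 with library totals, DESeq2 and offsets and 0 on the TPM scales. Chaperone genes called higher were 5 with library totals, 8, 8 and 5 on the TPM scales and 1 with offsets. tRNA synthetases called higher were 11 with library totals. Transporters called lower were 1 with library totals, offsets and the TPM scales, and those called higher were 5 on TPM with no filter. Other ATF4 targets called lower were 5 with no filter; on TPM with no filter 3 were called higher and 1 lower. Of the eIF2 genes, 0 were called lower on the TPM scales, and 1 mitochondrial relay gene was called lower with RLE factors, limma-voom and offsets. With a library left out, the ranges were 2 to 7 higher and 2 to 6 lower for other targets, 1 to 2 lower for transporters, 4 to 7 higher for synthetases, 1 to 4 higher and 1 to 3 lower for folate genes and 1 to 5 higher for chaperone genes. The cause of these changes was not tested.

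The labels do not state whether equal replicate numbers pair the libraries. The correlation of deviations from the group means over genes was -0.007, 0.078 and -0.054 for equal numbers, and shUSP8_1 correlated best with shCtrl_3 (0.119). With so few libraries, a correlation over all genes cannot settle whether they were paired, least of all for a small set of genes. The replicate block called 2021 genes higher and 1690 lower and changed no call among the members. With 3 libraries a group, the spread of Ddit3, Trib3 and Chac1 in shCtrl limits what can be said of them.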

Other observations

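Some further genes, named after their values were seen, had the same order of control libraries as Trib3, Chac1 and Ddit3. Herpud1, which helps degrade misfolded proteins at the endoplasmic reticulum and ranked 5 by its span in shCtrl, had 42.8, 40.4 and 44.8 CPM in the shUSP8 libraries, against 40.5, 72.2 and 107.6 CPM in the shCtrl libraries (log2 fold change -0.78, adjusted p = 0.224). Herpud1 passed only without shCtrl_1 (-1.08, adjusted p = 0.0167), and without shCtrl_3 its value was -0.40 (0.397). Slc1a4, a transporter of alanine and serine, had 5.08, 6.03 and 6.15 CPM in the shUSP8 libraries. In the shCtrl libraries it had 5.16, 8.39 and 15.9 CPM (-0.77, adjusted p = 0.294). Slc1a4 also passed only without shCtrl_1 (-1.08, 0.0498), and without shCtrl_3 it was at -0.24 (0.452). Nupr1, a stress-induced nuclear protein, had 24.4, 23.9 and 24.2 CPM in the shUSP8 libraries, against 24.2, 31.8 and 39.5 CPM in the shCtrl libraries. Its value of -0.40 (adjusted p = 0.132) passed only in DESeq2 (0.0368), with no filter (0.00222) and without shCtrl_1 (-0.56, 0.00152). Without shCtrl_3 it was at -0.21 (0.189).

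Aldh1l2, the nearest gene to Asns, had 435, 518 and 534 expected counts in the shUSP8 libraries, against 184, 248 and 366 in the shCtrl libraries. The groups did not overlap, and the log2 fold change was 0.83 (adjusted p = 0.0802). Aldh1l2 passed without shCtrl_3 (1.14, adjusted p = 9.41e-04), with the replicate block (0.00531), in DESeq2 (3.79e-04) and in limma-voom (0.00929). It also passed on log2(TPM + 1) (0.0292) and log2(TPM + 0.1) (0.0320). It did not pass with RLE factors (0.0804), library totals (0.0533), no filter (0.18) or offsets (0.0793). Nor did it pass on log2(TPM + 1) with no filter (0.0921) or with any other library left out (0.0678 to 0.227). Cth, which makes cysteine from cystathionine, had 8.59, 9.80 and 9.47 CPM in the shUSP8 libraries, against 3.54, 4.24 and 7.44 CPM in the shCtrl libraries (0.87, adjusted p = 0.0399). Its call held without shCtrl_3 and was lost without shUSP8_1 (0.0842), shUSP8_2 (0.110), shUSP8_3 (0.110), shCtrl_1 (0.0590) or shCtrl_2 (0.140), and on log2(TPM + 1) with no filter (0.0677).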
